A study of Homo sapiens with 12 samples.

Results

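The 10 genes described here encode ligands and receptors of the epidermal growth factor (EGF) system and were measured in HK2 cells, an immortalized cell line from the human proximal tubule. The genes were taken by family membership: the 6 ligands TGFA, EGF, AREG, EREG, HBEGF and BTC and the 4 receptors EGFR, ERBB2, ERBB3 and ERBB4, out of 58288 gene IDs counted. RNA was measured in 4 groups of 3 libraries. Short-term cells were harvested below 30 passages, and long-term cells, by their labels, above 120. The study's methods set a smaller number of passages for long-term cells, counted from clonal selection. At each time nontarget cells, which carried a control short hairpin RNA (shRNA) and are labelled WT, stood beside cells with an shRNA against FLCN, the gene mutated in Birt-Hogg-Dubé syndrome. All groups grew in DMEM with serum. The knockdown cells were stable clones, and the clone behind each library is not given in the sources used here, so what the shRNA did and what the clone brought with it cannot be told apart.

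EGF-family ligands are made as precursors anchored in the cell membrane, and metalloproteases such as ADAM17 and ADAM10 cut them free. Once bound, the receptors pair with each other, phosphorylate their tails and pass the signal to the RAS-ERK and PI3K-AKT pathways. In the kidney tubule the receptor EGFR and its ligands are known for their roles in growth, repair after injury and magnesium transport.

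Library totals ran from 5825779 to 8991051 counts. Levels are given in CPM, the count relative to the library total after scaling by TMM factors, and as CPM per kb of exon where genes are compared with each other. FLCN itself, the targeted gene, had means of 15.3 CPM in short-term nontarget and 6.06 in short-term knockdown libraries, and of 11.3 and 6.99 CPM in the long-term pair. Its log2 fold change was -1.33 after short-term and -0.70 after long-term knockdown. The difference between these changes, 0.63, had an adjusted p of 0.118 by edgeR. Of 14 kidney epithelium markers 8 passed the filter on low counts, among them PAX8, KRT8 and KRT18, while the proximal tubule transport gene LRP2 had no count in any library and CUBN, AQP1 and SLC34A1 stayed below 1 CPM on average in every group. GGT1 and MME also passed, with means of 36.3 and 38.1 CPM without and 65.5 and 85.8 CPM with long-term knockdown. CDH16 averaged 18.6 CPM without and 50.8 with long-term knockdown, EPCAM 31.0 and 20.7, and PAX8 251.0 and 164.0. None of the 4 leukocyte and 4 endothelial markers passed the filter. PTPRC, CD3E and KDR were at 0, CD68 had 9 counts over the 12 libraries, and of the other endothelial markers VWF had 46, with 1.31 CPM on average without and 0.0565 with long-term knockdown, PECAM1 19 and CDH5 2. The summed endothelial markers ran from 0.0 to 2.20 CPM and the summed fibroblast markers ran from 14.8 to 43.7 CPM. Of the 3 that passed the filter, COL1A1 averaged 22.2 CPM without and 28.2 with short-term knockdown and 18.7 without and 18.2 with long-term knockdown. The means of PDGFRB were 3.99, 2.19, 7.41 and 0.658 CPM and those of THY1 0.979, 2.57, 1.80 and 0.602 CPM in the same order. The part of these markers in the results was not tested. Replicates of a group differed by more than counting error, with a chi-square per degree of freedom of 2.07 to 11.9, and in each of the 4 groups both pairs with replicate 3 (4.06 to 11.9) were farther apart than the pair without it (2.07 to 4.93). In bulk RNA, fewer cells of a kind and less RNA per cell cannot be told apart.

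**Figure D1:**
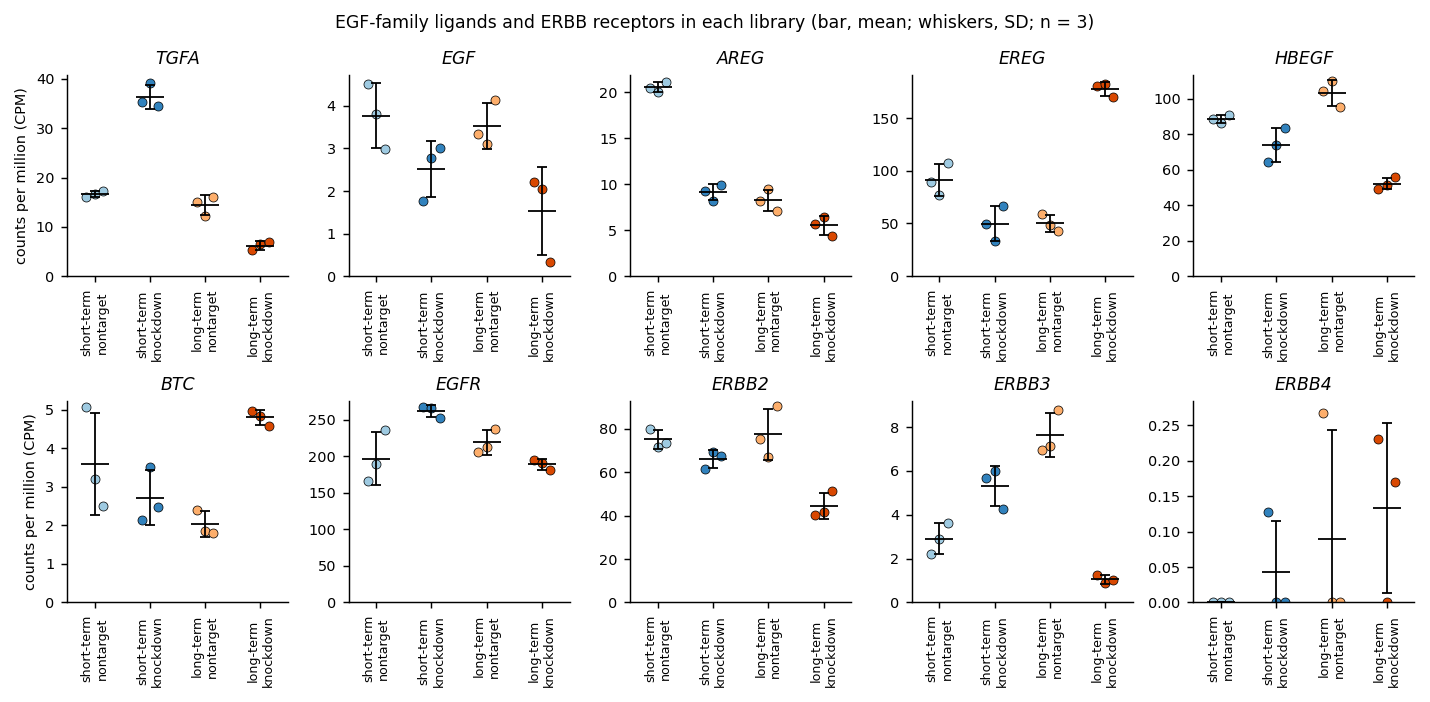
Each panel plots 1 gene in CPM (linear axis from 0, its own scale) for the 3 libraries of each group, with the mean as a bar and the SD as whiskers. EREG and BTC are highest in the 3 long-term knockdown libraries except for 1 short-term nontarget library of BTC at 5.06 CPM, TGFA is highest in short-term knockdown, and ERBB4 is near 0 throughout.

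Per kb of exon, HBEGF, a heparin-binding ligand, was the most abundant member in 3 groups, at 29.3 ± 0.755 CPM per kb without and 24.5 ± 3.16 with short-term knockdown and at 34.2 ± 2.51 in long-term nontarget libraries (SD, n = 3). In long-term knockdown cells EREG, the gene of epiregulin, came first at 31.0 ± 1.13 CPM per kb and HBEGF second at 17.3 ± 1.08, and the libraries of these neighbours in the order did not overlap. EGFR, the main receptor for these ligands, held 15.1 to 21.0 CPM per kb over the 4 group means. Its libraries overlapped those of EREG in short-term nontarget cells and those of HBEGF in short-term knockdown cells. ERBB2, the receptor with no known ligand of its own, lay between 4.30 and 7.51 CPM per kb. Its libraries overlapped those of AREG in short-term knockdown cells and those of EREG in short-term knockdown and long-term nontarget cells. EGF, BTC and ERBB3 stayed at or below 1.70 CPM per kb in every group mean, and the libraries of ERBB3 overlapped those of EGF in both knockdown groups and those of BTC in long-term nontarget cells. ERBB2 is the member whose level depends most on the length used: with its longest transcript instead of all its exons the group means were 9.01 to 15.7 CPM per kb, which puts it above EREG (10.8 by the same measure) in short-term knockdown and long-term nontarget cells. The exons of ERBB2 also share 571 bases with MIEN1 and 194 with PGAP3, genes on the opposite strand, and the strand setting of the counting is not stated, so part of its counts could not be assigned with certainty.

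The make-up of the ligand pool differed between groups while its total moved less. The summed level of the 6 ligands was 62.9 ± 3.57 CPM per kb without and 47.4 ± 5.39 with short-term knockdown, and in long-term cells 52.2 ± 3.72 without and 54.8 ± 1.15 with knockdown (SD, n = 3). HBEGF made up 46.6% ± 1.47 of it in short-term nontarget and 65.6% ± 1.86 in long-term nontarget libraries. TGFA took 5.34% ± 0.25 in short-term nontarget and 15.6% ± 2.37 in short-term knockdown libraries. EREG took 16.7% ± 2.04 in the long-term nontarget libraries and 56.6% ± 1.38 in long-term knockdown libraries, where HBEGF came second with 31.5% ± 2.34 and TGFA held 2.28% ± 0.338. Among the receptors EGFR made up 67.1% to 77.3% and ERBB2 22.0% to 31.5% of the summed level in the group means. The ERBB2 share depends on the length used and is larger with the longest transcript. By that length ERBB2 stood at 15.2 CPM per kb beside 20.1 for EGFR in short-term nontarget cells. In long-term knockdown cells it stood at 9.01 beside 19.2. These shares are descriptions and carry no test.

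**Figure D2:**
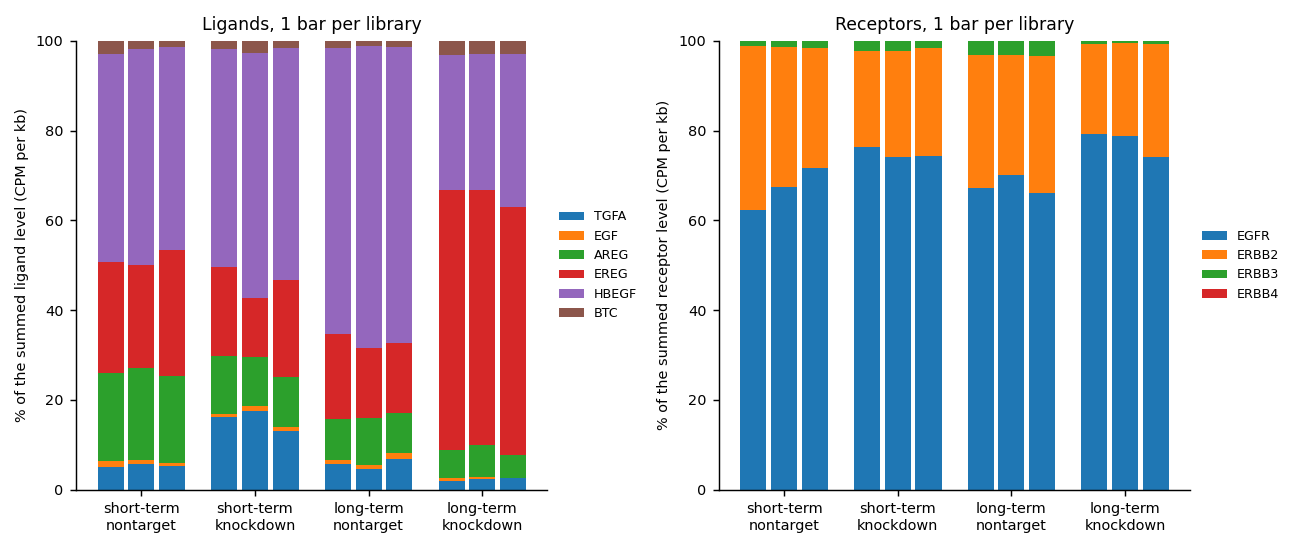
Stacked bars give, for each of the 12 libraries, the percentage of the summed level (CPM per kb) held by each ligand (left) and each receptor (right). EREG is the largest ligand share in all 3 long-term knockdown libraries, between 55.2% and 57.9%, and HBEGF in the other 9.

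The 5 comparisons were tested in 1 edgeR quasi-likelihood model over 13959 genes, with a call at a Benjamini-Hochberg adjusted p below 0.05 and no limit on the fold. Of the 10 members 9 passed the filter on low counts, ERBB4 being left out. After short-term knockdown 5 of the 9 were called, 3 higher (TGFA, EGFR and ERBB3) and 2 lower (AREG and EREG), where 10.3% of all tested genes were called, 5.62% higher and 4.71% lower. After long-term knockdown 8 of 9 were called, 2 higher (EREG and BTC) and 6 lower (TGFA, EGF, AREG, HBEGF, ERBB2 and ERBB3), against a background of 29.5%, 13.7% higher and 15.8% lower. The median log2 fold change of the 9 members was -0.26 after short-term and -0.81 after long-term knockdown, beside -0.0001 and 0.001 over all tested genes.

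The knockdown changes themselves differed between the 2 times, by the interaction term, for 7 of 9 members, with 13.4% of all genes called, 4.98% in the direction of a higher and 8.43% of a lower change in long-term cells. Long-term against short-term culture called 3 of 9 members in nontarget cells, ERBB3 higher and AREG and EREG lower, where the background was 7.55%, with 3.17% higher and 4.38% lower. In knockdown cells it called 8 of 9, EREG and BTC higher and TGFA, AREG, HBEGF, EGFR, ERBB2 and ERBB3 lower, with a background of 26.6%, 11.5% higher and 15.2% lower. The comparisons share libraries with each other, so their lists of calls are not independent. The short-term knockdown count fell from 5 to 3, with 1 higher and 2 lower, when short-term nontarget replicate 1 or 2 or short-term knockdown replicate 1 or 2 was left out. Without replicate 3 of every group, the counts were 6, 6, 7, 3 and 6 of 9 in the order given here.

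**Figure D3:**
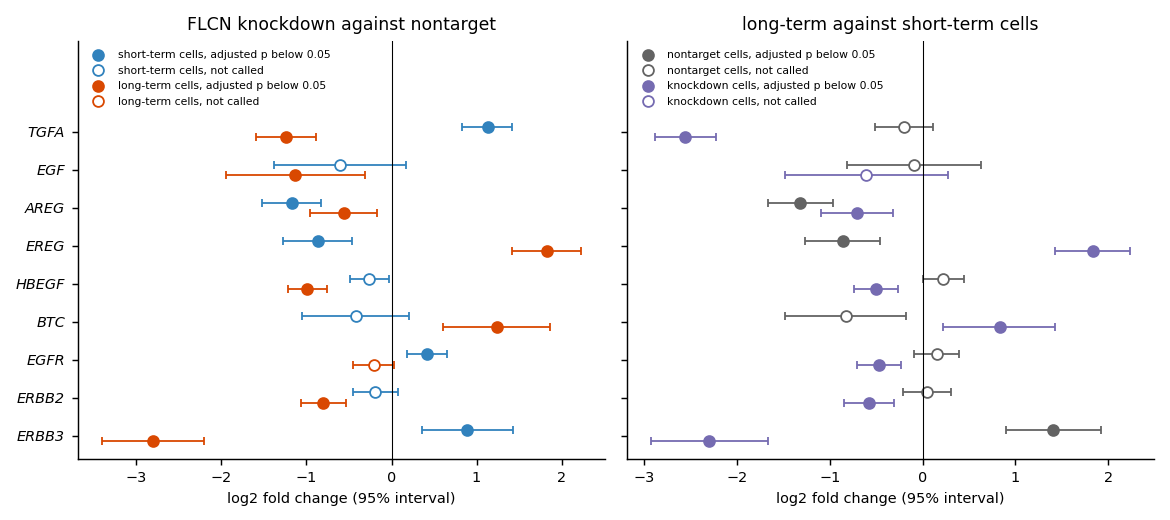
Points give log2 fold changes with 95% intervals for the 9 tested members, filled where the adjusted p was below 0.05. On the left, FLCN knockdown against nontarget in short-term and long-term cells, with TGFA, EREG and ERBB3 called on opposite sides of 0 at the 2 times, and BTC and EGFR on opposite sides with 1 of the 2 changes called. On the right, long-term against short-term culture in nontarget and knockdown cells, with EREG and ERBB3 called on opposite sides, and HBEGF, BTC, EGFR and ERBB2 on opposite sides with only the change in knockdown cells called.

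TGFA encodes transforming growth factor alpha, a ligand of EGFR alone (chr2:70447280-70554193, minus strand, GRCh38). It read 16.1, 16.6 and 17.3 CPM in the short-term nontarget libraries and 35.3, 39.2 and 34.5 CPM after knockdown, and in long-term cells 15.1, 12.2 and 16 CPM without and 5.20, 6.46 and 6.95 CPM with knockdown. Each knockdown group lay wholly outside its nontarget group, above it in short-term and below it in long-term cells. The log2 fold change was 1.13 ± 0.14 (SE, adjusted p = 5.49e-05 by edgeR) after short-term and -1.24 ± 0.165 (adjusted p = 1.93e-05) after long-term knockdown. Between the 2 knockdown groups the long-term level was lower 5.91-fold (adjusted p = 2.6e-09), and in nontarget cells time left a log2 difference of -0.20, with a 95% interval of -0.51 to 0.11. The 40 tested genes nearest to TGFA had a median log2 fold change of 0.37 after short-term knockdown, with 13 called higher and 2 lower, and of 0.59 after long-term knockdown, with 27 called higher and 2 lower, beside the 10.3% and 29.5% of all genes called in either direction. TGFA thus lay on the same side of 0 as its neighbours' median in the short-term comparison and on the other side in the long-term one.

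AREG and EREG, the genes of amphiregulin and epiregulin, are neighbours at chromosome 4q13, with EREG at chr4:74365143-74388751 and AREG at chr4:74445134-74455009, both on the plus strand and 56.4 kb apart (GRCh38). The ligand gene BTC lies 289.7 kb beyond AREG. Amphiregulin is a weak ligand of EGFR, and epiregulin binds EGFR and ERBB4. The stretch upstream of the RefSeq start site is shown for this pair because both hold a TATA box within 3 bases of the same place, and because their RNA levels went apart in long-term knockdown cells. Each line runs 5′ to 3′ on the plus strand from base -130 to base -11 before the start site (RefSeq, GRCh38.p14), AREG at chr4:74445006-74445125 and EREG at chr4:74365015-74365134, with the TATA box TATAAA and, in AREG, the cAMP response element TGACGTCA in capitals.
AREG: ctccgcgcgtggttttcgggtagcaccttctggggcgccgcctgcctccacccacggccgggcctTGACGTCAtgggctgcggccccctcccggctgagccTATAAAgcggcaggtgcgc
EREG: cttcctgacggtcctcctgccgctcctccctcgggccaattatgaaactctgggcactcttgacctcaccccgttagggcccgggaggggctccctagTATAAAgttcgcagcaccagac

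The TATA box starts at base -29 in AREG and at -32 in EREG, and the cAMP response element starts at base -65 in AREG. Over windows of 300 bases from 250 before to 50 after the start, searched on both strands, 11.5% of 35116 RefSeq promoters hold TATAAA and 1.85% hold TGACGTCA. The other motifs searched were AP-1 (TGANTCA, in 7.71% of promoters), the E-box CACGTG (7.26%), the M-box CATGTG (11.1%) and an E2F motif (TTTNNCGC, 6.89%), none of which overlap with the capitals. TATAAA was also found in the window of the second start site of EGFR, AP-1 in the windows of EGF, ERBB2 and the second start site of EGFR, the M-box in those of the second start sites of TGFA and EGFR, and the E-box and E2F letters in none of the 9 members with a window. The motifs were picked with the levels known, and a match is a description and not a binding site.

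AREG read 20.5, 20 and 21.1 CPM in the short-term nontarget libraries and 9.24, 8.19 and 9.91 CPM after knockdown, and in long-term cells 8.17, 9.45 and 7.12 CPM without and 5.66, 6.46 and 4.41 CPM with knockdown. Short-term nontarget cells stood above the other 9 libraries, and long-term knockdown libraries were the lowest. After short-term knockdown AREG fell by 1.17 on the log2 scale (SE 0.163, adjusted p = 0.00015 by edgeR), and in nontarget cells it fell over long culture by 1.32 (SE 0.164, adjusted p = 5.85e-05). After long-term knockdown the log2 fold change was -0.56 ± 0.186 (adjusted p = 0.0293). That call was lost without long-term nontarget replicate 1 (-0.57) or 2 (-0.47) and without long-term knockdown replicate 1 (-0.59) or 3 (-0.44), and with DESeq2 (adjusted p = 0.0611). The knockdown change did not pass the test for a difference between the times (interaction 0.61, 95% interval 0.08 to 1.13, adjusted p = 0.122). Over long culture in knockdown cells AREG fell by 0.71 (adjusted p = 0.0084), and without replicate 3 of every group the value was -0.54 (adjusted p = 0.0584).

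EREG read 89.0, 77.0 and 107.0 CPM in the short-term nontarget libraries and 49.3, 33.8 and 66.5 CPM after knockdown, and in long-term cells 59.1, 48.3 and 42.4 CPM without and 180.0, 182.0 and 170.0 CPM with knockdown. The long-term knockdown libraries stood above all others and the short-term knockdown libraries overlapped the long-term nontarget ones. The log2 fold change was -0.87 ± 0.191 (SE, adjusted p = 0.0074 by edgeR) after short-term and 1.83 ± 0.19 (adjusted p = 2.51e-06) after long-term knockdown, a 3.55-fold rise. Over long culture it fell in nontarget cells (-0.86, adjusted p = 0.00968) and rose in knockdown cells (1.84, adjusted p = 2.98e-06). All 4 calls held when any 1 library was left out.

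The ratio of EREG to AREG per kb was 1.11 to 1.46 without and 1.19 to 1.94 with short-term knockdown, and in long-term cells 1.47 to 2.08 without and 8.13 to 11.1 with knockdown. It was thus at most 2.08 in 9 libraries and at least 8.13 in the other 3. The 40 tested genes nearest to EREG had a median log2 fold change of -0.13 after short-term and 0.09 after long-term knockdown, with 0 called higher and 5 lower in the former and 10 higher and 8 lower in the latter, 18 of 40 where 29.5% of all genes were called. Nearly the same 40 genes surround AREG and BTC, so these 3 members share 1 neighbourhood. BTC took a higher value with EREG, as described below, while AREG, which lies between them, was lower.

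**Figure D4:**
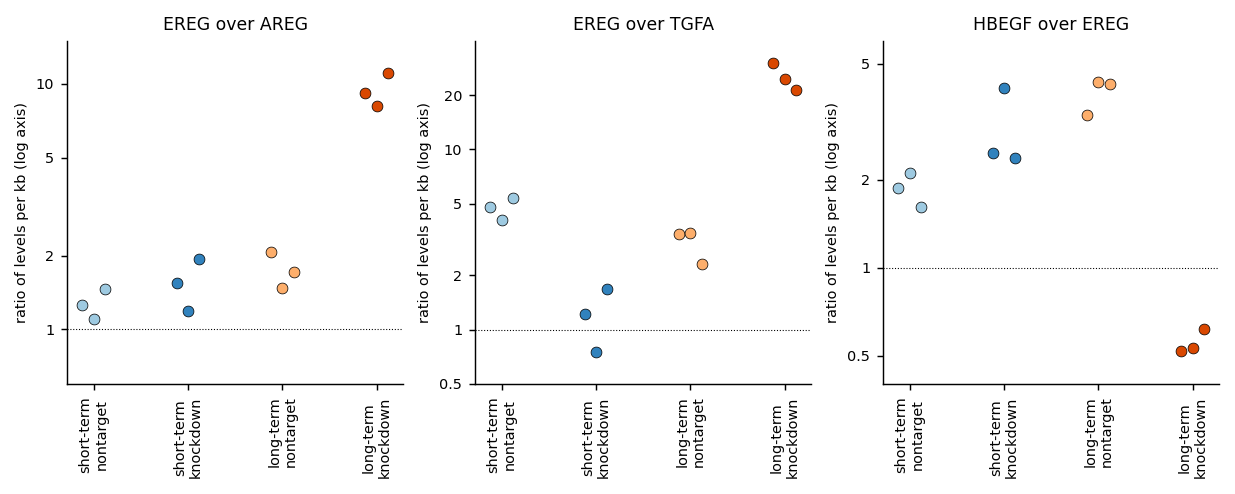
Points give, for each library, the ratio of levels per kb of EREG to AREG, of EREG to TGFA and of HBEGF to EREG on log axes, with a dotted line at a ratio of 1. The long-term knockdown libraries lie apart in each panel, at 8.13 to 11.1, at 21.2 to 30.1 and at 0.517 to 0.619.

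HBEGF (chr5:140332843-140346631, minus strand) encodes a ligand of EGFR and ERBB4. It read 88.3, 86.3 and 90.8 CPM in the short-term nontarget libraries and 64.3, 73.8 and 83.4 CPM after knockdown, and in long-term cells 104.0, 110.0 and 95.4 CPM without and 49.2, 51.4 and 55.6 CPM with knockdown. The long-term knockdown libraries were the lowest, and the 4 groups did not overlap. The level was lower 1.99-fold after long-term knockdown (log2 fold change -0.99 ± 0.11, SE, adjusted p = 2.57e-06 by edgeR). After short-term knockdown it was -0.26 ± 0.109 with an adjusted p of 0.147, and without replicate 3 of every group -0.34 with an adjusted p of 0.0232. Over long culture it fell in knockdown cells (-0.50, adjusted p = 0.00255), and in nontarget cells the difference was 0.22 (adjusted p = 0.266).

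BTC, the gene of betacellulin, a ligand of EGFR and ERBB4 (chr4:74744759-74794686, minus strand), was counted with 12 to 43 counts per library. It read 5.06, 3.19 and 2.51 CPM in the short-term nontarget libraries and 2.15, 3.51 and 2.48 CPM after knockdown, and in long-term cells 2.41, 1.86 and 1.81 CPM without and 4.97, 4.84 and 4.58 CPM with knockdown. The long-term pair did not overlap and the short-term pair did. BTC rose after long-term knockdown 2.36-fold (log2 fold change 1.24 ± 0.295, SE, adjusted p = 0.004 by edgeR). Over long culture in knockdown cells it was 0.83 higher on the log2 scale (adjusted p = 0.0403), a call that held only when short-term knockdown replicate 2 was left out and was lost without each of the other 5 libraries of these groups (0.67 to 0.86). The interaction, 1.66 ± 0.42, was lost without short-term nontarget replicate 1 (1.31, adjusted p = 0.058).

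EGF itself (chr4:109912884-110012266, plus strand), made in the kidney by the distal tubule, had the lowest mean of the ligands per kb in every group. In long-term nontarget cells its libraries overlapped those of BTC, and with the longest transcript as length its mean was 0.723 CPM per kb beside 0.721 for BTC. It read 4.51, 3.8 and 2.99 CPM in the short-term nontarget libraries and 1.77, 2.78 and 3.01 CPM after knockdown, and in long-term cells 3.35, 3.10 and 4.14 CPM without and 2.20, 2.05 and 0.339 CPM with knockdown. The long-term pair did not overlap, and long-term knockdown replicate 3 held 2 counts where the other two held 19 and 14. The log2 fold change after long-term knockdown was -1.13 ± 0.391 (SE, adjusted p = 0.0371 by edgeR). It moved to -0.73 (adjusted p = 0.103) without long-term knockdown replicate 3 and lost its call also without long-term nontarget replicate 1 (-1.17), 2 (-1.22) or 3 (-1.0). No other comparison called EGF, with log2 differences from -0.61 to -0.09.

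EGFR (chr7:55019021-55211628, plus strand) was the receptor with the most RNA. It read 166.0, 189.0 and 236.0 CPM in the short-term nontarget libraries and 268.0, 266.0 and 253.0 CPM after knockdown, and in long-term cells 206.0, 213.0 and 238.0 CPM without and 195.0, 191.0 and 181.0 CPM with knockdown. Short-term knockdown libraries stood above the other 9. EGFR rose 1.33-fold after short-term knockdown (log2 fold change 0.42 ± 0.113, SE, adjusted p = 0.025 by edgeR), a call lost without short-term nontarget replicate 1 (0.30) or 2 (0.38) or short-term knockdown replicate 1 (0.40) or 2 (0.41). After long-term knockdown the difference was -0.21 with a 95% interval of -0.45 to 0.03 (adjusted p = 0.181). The 2 changes differed by -0.63 (adjusted p = 0.0133), and EGFR fell over long culture in knockdown cells (-0.47, adjusted p = 0.0047). The antisense gene EGFR-AS1, which shares 186 exon bases, had 194 counts over the 12 libraries beside 18136 for EGFR and was called in none of the 5 comparisons (log2 differences of -0.24 to 0.01).

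ERBB2 (chr17:39687914-39730426, plus strand) read 80.1, 71.8 and 73.4 CPM in the short-term nontarget libraries and 61.5, 69.5 and 67.4 CPM after knockdown, and in long-term cells 75.2, 66.9 and 90.3 CPM without and 40.4, 41.5 and 51.2 CPM with knockdown. The long-term knockdown libraries lay below all others. ERBB2 fell after long-term knockdown (log2 fold change -0.81 ± 0.126, SE, adjusted p = 9.86e-05 by edgeR) and over long culture in knockdown cells (-0.58, adjusted p = 0.0025). The short-term change was -0.19, with a 95% interval of -0.45 to 0.08. The difference between the times, -0.62 ± 0.177 (adjusted p = 0.025), was lost in 6 of 12 fits that left out 1 library: short-term nontarget replicate 2 (-0.59) or 3 (-0.61), short-term knockdown replicate 2 (-0.58), long-term nontarget replicate 3 (-0.51), and long-term knockdown replicate 1 (-0.57) or 2 (-0.59).

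ERBB3 (chromosome 12), a receptor for neuregulins with a weak kinase of its own that signals mostly with a partner such as ERBB2, showed the widest span of the 3 tested receptors. It read 2.19, 2.89 and 3.61 CPM in the short-term nontarget libraries and 5.69, 5.99 and 4.25 CPM after knockdown, and in long-term cells 6.97, 7.12 and 8.80 CPM without and 1.27, 0.880 and 1.02 CPM with knockdown, from 6 to 68 counts each. No group overlapped another. ERBB3 fell after long-term knockdown 7.03-fold (log2 fold change -2.81 ± 0.284, SE, adjusted p = 8.71e-07 by edgeR), and over long culture it rose in nontarget cells (1.41, adjusted p = 0.00116) and fell in knockdown cells (-2.30, adjusted p = 1.74e-05). These calls held when any 1 library was left out. The rise after short-term knockdown (0.89 ± 0.253, adjusted p = 0.0306) was lost without short-term nontarget replicate 1 (0.72) or 2 (0.90) or short-term knockdown replicate 1 (0.84) or 2 (0.80), and with DESeq2 (0.90, adjusted p = 0.077).

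ERBB4 (chr2:211375717-212538841, minus strand), the other neuregulin receptor, had 0 counts without and 1 with short-term knockdown, and in long-term cells 2 without and 3 with knockdown, summed over each group. The 0 of 20014200 counts allows a level of up to 0.184 CPM of the unscaled total by the exact 95% Poisson interval (0.15 CPM by the limit of 3 counts), and the 3 counts amount to 0.138 CPM with an exact interval of 0.0284 to 0.402, all covering counting error only. The exact intervals of the 4 groups overlap, and ERBB4 was not tested.

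For members whose group means spanned at least 1 log2 unit, the genes with the most similar pattern over the 12 libraries were taken by the root mean square difference of centred log2 CPM, among genes whose mean reached 5 CPM. For TGFA these were ATP10A at 0.24, SEMA3E at 0.25 and PLA2G16 at 0.26 log2 units, for AREG NFE2L3 at 0.21, F2R at 0.29 and ENPP4 at 0.30, and for EREG EFEMP1 at 0.27, RIC1 at 0.34 and PCOLCE2 at 0.37. BTC lay nearest to C11orf49 at 0.22, HIBADH at 0.26 and PAX6 at 0.26. EGF lay nearest to ELOVL4 at 0.37, STS at 0.41 and CEP44 at 0.41, and ERBB3 to AC126696.2 at 0.37, FAM84B at 0.41 and TGFBR3 at 0.42. HBEGF, ERBB2 and EGFR spanned 0.98, 0.80 and 0.47 log2 units and were not matched.

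Around the family, 72 of 81 other genes of the pathway in 7 lists were tested. Short-term knockdown called 7 of the 72, 3 higher and 4 lower, beside the 10.3% of all genes, and long-term knockdown called 31, 13 higher and 18 lower, beside 29.5%. The lists' median log2 fold change was -0.03 and -0.11. Among genes named here, those beyond the 3 largest changes of a list were added after their values were seen, to complete counts of 5 or fewer or, for the longer lists, as further examples.

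Of the 5 other ligands only NRG1, neuregulin 1, which binds ERBB3 and ERBB4, passed the filter. It was at 107.0 ± 3.13 CPM without and 261.0 ± 34.0 with long-term knockdown (SD, n = 3), a log2 fold change of 1.28 ± 0.108 (adjusted p = 1.14e-07 by edgeR). Short-term knockdown did not call it, and the 2 changes differed by 1.05 (adjusted p = 0.000105). NRG1 was highest in the libraries in which ERBB3 was lowest.

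Of 7 genes for ligand shedding none was called after short-term and 5 after long-term knockdown. Of all tested genes 10.3% and 29.5% were called. ADAM12, a metalloprotease, stood at 1.49 ± 1.15 CPM without and 33.3 ± 2.35 CPM with long-term knockdown (SD, n = 3) and rose by 4.47 ± 0.348 on the log2 scale (SE, adjusted p = 7.89e-08 by edgeR), and ADAM17 rose by 0.36. RHBDF1, an inactive rhomboid that carries ADAM17 to the cell surface, fell by 0.89 (adjusted p = 0.000944), ADAM9 by 0.77 and ADAM10 by 0.27.

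Of 18 adaptors and kinases of the RAS-ERK route, none was called after short-term and 5 after long-term knockdown, a share near the 29.5% of all genes: SOS1, a RAS activator (0.80, adjusted p = 0.000153), BRAF (0.40) and GRB2 (0.29) were higher, and the adaptor GAB2 (-1.40, adjusted p = 0.00189) and the kinase MAP2K1 (-0.30) lower. Of 10 genes of receptor endocytosis and sorting none was called after short-term and 5 after long-term knockdown. The shares of all tested genes were 10.3% and 29.5%. After long-term knockdown HGS (0.68) and AP2M1 (0.39) were higher and STAM (-0.66), RAB5A (-0.36) and RAB7A (-0.27) lower. HGS stood at 0.43 without long-term knockdown replicate 3, and its adjusted p reached at most 0.044, without long-term nontarget replicate 1.

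Of 14 inhibitors of the receptors or of RAS, none was called after short-term knockdown and 7 after long-term knockdown. Of all tested genes 10.3% and 29.5% were called. The following changes are those after long-term knockdown. LRIG2 (1.21), the RAS inactivator RASA1 (0.98) and LRIG3 (0.52) were higher, and the RAS-ERK antagonists SPRY4 (-1.32), SPRED3 (-1.16) and SPRY2 (-0.62), and ERRFI1 (-0.87), which binds and inhibits EGFR, were lower. Of 14 genes known to respond to ERK, 6 were called after short-term knockdown, beside 10.3% of all tested genes. EPHA4 (1.49) and the cyclin gene CCND1 (0.61) were higher. The transcription factor genes ETV1 (-1.25), ETV4 (-0.63) and ETV5 (-0.51) and the early response gene IER3 (-0.57) were lower. After long-term knockdown 7 of these genes were called, beside 29.5% of all tested genes. EPHA4 (1.23) was higher. CCND1 (-5.38), ETV4 (-1.80), the ERK phosphatase genes DUSP6 (-0.96) and DUSP5 (-0.83), ETV1 (-0.75) and the receptor gene EPHA2 (-0.73) were lower. CCND1 fell from 145.0 ± 13.9 to 3.49 ± 0.225 CPM (SD, n = 3), and without it 5 genes of this list were lower and 1 higher.

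When 1 library was left out at a time, 21 of the 31 long-term pathway calls and 6 of the 7 short-term ones passed in each fit. Among the 10 that did not were ADAM9, ADAM10, ADAM17, BRAF, GRB2, MAP2K1, RAB5A, RAB7A and SPRED3. Each of the 6 long-term libraries took away at least 1 of them, the directions stayed, and log2 values ranged from 0.28 to 0.46 for ADAM17, from 0.32 to 0.49 for BRAF and from -1.54 to -0.99 for SPRED3. Other settings took long-term calls from these genes too. SPRED3 lost its call with DESeq2 (adjusted p = 0.0765), and ADAM10, GRB2, MAP2K1 and RAB7A lost theirs with no filter on low counts (0.0691 to 0.107). With only the groups compared, these 4 and ADAM17, BRAF and RAB5A lost theirs (0.0557 to 0.0928), and without replicate 3 of every group ADAM9 (0.0635), ADAM10 (0.0518) and SPRED3 (0.117) did. The short-term call of ETV4 held only without short-term nontarget replicate 3, with values of -0.73 to -0.54 over the 6 fits.

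**Figure D5:**
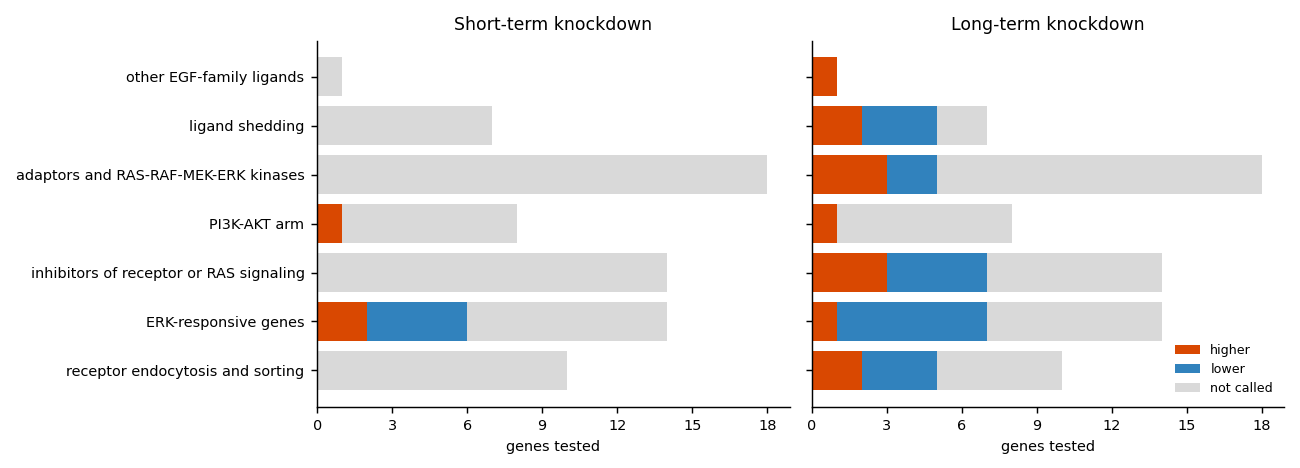
Bars give the number of tested genes of each of 7 pathway lists called higher, called lower or not called after short-term knockdown (left) and long-term knockdown (right). The short-term calls fall in 2 lists, with 6 of 14 in the ERK-responsive genes, and the long-term calls in all 7. Of all tested genes 10.3% were called after short-term and 29.5% after long-term knockdown.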

How the data were processed

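Counts of reads per gene, deposited by the authors for 12 libraries, were used (TruSeq v2 kit, MiSeq, fastp, STAR, featureCounts, GRCh38); the per-library count files differed in 0 values. Versions, annotation release and strand setting are not given in the sources used here. The deposited normalized values have the unit score and were not tested. Genes were matched to GENCODE by ID, and coordinates are printed only for IDs of the same version.

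The counts went through edgeR 4.0.16 in R 4.3.3: filterByExpr by group (13959 genes, 99.8% of counts), TMM factors and 1 quasi-likelihood model with a term per group, two-sided p-values and Benjamini-Hochberg adjustment over all genes tested. SE is the log2 fold change divided by the square root of F. Alternatives were DESeq2 1.42.0, RLE factors, other filters, the groups compared alone, the replicate number as a block and leaving out libraries. The coefficient of variation was 12%. Totals of 5825779 to 8991051 limit low genes. P-values measure the spread between libraries labelled biological replicates, whose separate origin is not stated.

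The fit was tested on simulated data. In 200 genes changed 2-fold among 13959, it recovered 80.5% for either knockdown comparison. Every simulated gene had the same coefficient of variation of 12%, and no replicate was set apart. The real libraries differ from this, so the recovery need not hold for them. Same-numbered replicates deviated together in long-term knockdown (correlations 0.123 to 0.458) and in knockdown culture (0.223 to 0.455), and less so in the other comparisons (-0.034 to 0.111).

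Members, lists and motifs were chosen with earlier results of these data known. Named are all members, FLCN, up to 3 called genes with the largest change per list and knockdown comparison, the 3 nearest patterns and overlapping genes. Some genes that this rule or the marker lists would name are not reported here.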

Additional observations from a re-analysis of the deposited data

Results flagged for a closer look

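The change after FLCN knockdown differed between long-term and short-term cells for 7 members by the interaction term of the edgeR model (adjusted p below 0.05). The log2 change in long-term minus that in short-term cells was -2.37 ± 0.217 (SE) for TGFA, 2.70 ± 0.269 for EREG, -0.73 ± 0.154 for HBEGF, 1.66 ± 0.42 for BTC, -0.63 ± 0.16 for EGFR, -0.62 ± 0.177 for ERBB2 and -3.71 ± 0.384 for ERBB3. The adjusted p was 9.81e-07, 4.76e-06, 0.00356, 0.0126, 0.0133, 0.025 and 3.76e-06 in this order. TGFA, EREG and ERBB3 were called in opposite directions at the 2 times.

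The same term was called for 12 of the 72 other pathway genes tested, where 13.4% of all genes were called. The difference was 1.05 for NRG1, 4.95 for ADAM12, 1.16 for LRIG2, 0.63 for LRIG3, 1.34 for CBLB and 0.98 for RASA1. It was -1.25 for GAB2, -1.0 for ERRFI1, -0.93 for DUSP5, -1.44 for DUSP6, -1.17 for ETV4 and -5.99 for CCND1. The calls of CBLB, GAB2 and LRIG3 held in only 5, 3 and 3 of the 12 fits that left out 1 library, with values of 1.03 to 1.70, -1.54 to -1.05 and 0.54 to 0.69. The calls of GAB2 and LRIG3 were also lost with DESeq2 (adjusted p = 0.103 and 0.0676) and with no filter on low counts (0.0797 and 0.102), and those of GAB2 (0.0623) and LRIG2 (difference 0.91, 0.0815) without replicate 3 of every group. Single outlying libraries were not tested within groups of 3.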

How the results depend on the processing

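Other normalization factors, DESeq2, no filter on low counts, only the groups compared, the per-library files and the replicate block kept the direction of every member in every comparison. Member calls were lost with only the groups compared (EGF and AREG after long-term knockdown, adjusted p = 0.0663 and 0.0762, and BTC in knockdown culture, 0.0508), with no filter (AREG after long-term knockdown, 0.07) and with DESeq2 (AREG after long-term knockdown, 0.0611, ERBB3 after short-term knockdown, 0.077, and BTC in knockdown culture, 0.104). With a filter at a mean of 10 CPM, 5 members were called after long-term knockdown in place of 8, since BTC, EGF and ERBB3 were then not tested. With the replicate number as a block, 12 pathway genes were called after short-term knockdown in place of 7. Deviations of same-numbered short-term libraries correlated at 0.0172 to 0.111, and 3 replicates cannot settle whether the numbers pair them. The member counts were unchanged at 5, 8, 7, 3 and 8. A library correlated best with its own number in 3 of 6 cases in the short-term and 5 of 6 in the long-term comparison. The count was 2 of 6 in nontarget culture and 6 of 6 in knockdown culture. Without replicate 3 of every group, an alternative added after the data were seen, 13 pathway genes were called after short-term knockdown, and the calls of EGF (adjusted p = 0.226) and AREG (0.058) after long-term knockdown and of AREG (0.0584) and BTC (0.0647) in knockdown culture were lost.

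Leaving out 1 library gave 3 to 5 members after short-term knockdown, 6 to 8 after long-term knockdown, 6 to 7 in the interaction, 3 in nontarget culture and 7 to 8 in knockdown culture, and 6 to 8 and 23 to 32 pathway genes after short-term and long-term knockdown. The signs that turned belong to uncalled values: EGF in nontarget culture (-0.23 to 0.06 over the fits without 1 library, turning without short-term nontarget replicate 1) and ERBB2 in nontarget culture (-0.09 to 0.14, turning without long-term nontarget replicate 3, and -0.10 without replicate 3 of every group), and EGF in the interaction, which turned to 0.30 without replicate 3 of every group. The interaction could not be run on 2 groups only. Depth limits EGF, BTC, ERBB3 and ERBB4, and ERBB4, removed by the filter, was not tested.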
